A study of Mus musculus with 18 samples.

Results

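The genes examined here encode 35 proteins of base excision repair (BER, 17 genes), mismatch repair (MMR, 5 genes) and nucleotide excision repair (NER, 12 genes), with Mgmt, which reverses alkylated guanine directly, as the remaining gene. They were listed by symbol and found by Entrez identifier among the 27179 genes of the count files. All 35 passed the filter on low counts that left 17989 genes for testing. The rule names genes by their pathway and uses no measured value, although the list was drawn up with earlier results of these data known. It is not complete for any of the pathways.

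RNA was sequenced from 6 populations sorted from untreated C57BL/6 mice, which the study's methods describe as young adult males, and each population was represented by 3 libraries from separate animals, so p-values measure the spread between them. The series' design text speaks only of small and large airways of 6 mouse lungs, and the organs given here are those of the sample labels. Basal stem cells (BSCs) were the NGFR-positive cells of the tracheas of mice 1 to 3, and the NGFR-negative cells of the same tracheas formed the non-basal population. The lungs of mice 4 to 6 gave the other 4 populations. They were airway cells positive for EpCAM and CD104 with high CD24 (CD24hi, enriched for ciliated cells) or low CD24 (CD24lo, enriched for club cells), EpCAM-negative non-epithelial cells, and alveolar cells that were EpCAM-positive with low CD104. In a comparison of BSCs with alveolar cells, the organ, the animals and the cell type change together and cannot be told apart.

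In BER, a glycosylase cuts a damaged base from the sugar, the endonuclease Apex1 nicks the strand, Polb fills the gap and Xrcc1 with Lig3 seals it, while Parp1 and Parp2 bind the nick. MMR corrects mispaired bases after replication: MutS partners such as Msh3 and Msh6 find the mismatch and MutL partners such as Mlh3, Pms1 and Pms2 direct the cut. NER removes bulky and ultraviolet lesions. Xpc with Rad23b, or Ddb1 with Ddb2, find them anywhere in the genome, Ercc6 and Ercc8 find them where RNA polymerase has stalled, Ercc2 and Ercc3 unwind the helix in TFIIH, Xpa binds the opened site, and the nucleases Ercc5 and Ercc4 with Ercc1 cut out the strand.

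Libraries held 29317215 to 32993621 counted reads in trachea and 9811503 to 13208897 in lung, so low transcripts were counted with less error in trachea. Levels are given as RPKM, reads scaled for exon length and for library depth after TMM normalization, and differences as log2 fold changes with their standard error (SE) from 1 edgeR fit of all libraries. A gene was called where its p-value, adjusted over the 17989 genes by the Benjamini-Hochberg method, was under 0.05. The gates followed their labels with some carry-over. The basal keratin Krt5 averaged 1538 ± 52.8 RPKM (SD, n = 3) over the BSC libraries, against 119.8 ± 14.4 RPKM in non-basal and 42.8 ± 15.04 RPKM in CD24lo cells. Foxj1, the regulator of ciliated cells, was at 626 ± 62.5 RPKM in CD24hi cells and 70.6 ± 32.1 RPKM in CD24lo cells. The club cell marker Scgb1a1 averaged 598605 RPKM in CD24lo, 78229 RPKM in CD24hi and 1309 RPKM in BSC libraries. Cyp2f2, a further club marker, averaged 7105 RPKM in BSCs and 11594 RPKM in CD24lo cells. The alveolar marker Sftpc averaged 156232 RPKM in alveolar, 4217 RPKM in CD24lo and 1169 RPKM in CD24hi cells. The 4 endothelial markers summed to 43.4 to 257 RPKM over the 12 lung libraries, alveolar cells included, whose gate left out CD31-positive cells by the study's methods. In BSCs they summed to at most 0.157 RPKM, and Cdh5 and Cldn5 had no reads there. Their part in any difference between trachea and lung was not tested. These are bulk samples, so fewer cells of a type and less RNA per cell cannot be told apart.

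All 35 genes differed somewhere among the 6 populations in an F test of the same fit, as did 94.4% of all genes tested. The ratio of the highest to the lowest population mean was 42.4 for Neil3, 9.58 for Ogg1, 8.34 for Neil2, 5.99 for Ung and 4.01 for Pms1, and it lay between 1.45 for Ddb1 and 3.50 for Mgmt for the other 30. Ddb1 was also the most abundant of the 35, with population means of 68.4 to 99.4 RPKM, and Neil3 the least, with a mean of 0.565 RPKM over all libraries. BSCs had the highest mean for 14 of the 35 genes, or 40%, against 17.5% of all genes tested. By pathway this was 5 of 17 BER genes, 3 of 5 MMR genes, 5 of 12 NER genes and Mgmt. BSCs also had the lowest mean for 5 genes, all of them BER genes (Ogg1, Neil1, Neil2, Nthl1 and Mpg). These were 29.4% of the BER genes and 14.3% of the 35, against 22.1% of all genes. CD24hi cells were highest for 6 genes, or 17.1%, against 22.7% of all genes, and lowest for 10, or 28.6%, against 20.2%. EpCAM-negative cells were highest for 6, or 17.1%, against 26.2%. Alveolar cells were highest for 5 genes, non-basal cells for 3 and CD24lo cells for 1, where the shares of all genes were 16.4%, 10.7% and 6.47%. With library size in place of TMM scaling, BSCs were highest for 20 genes, or 57.1%, against 27.1% of all genes.

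**Figure D1:**
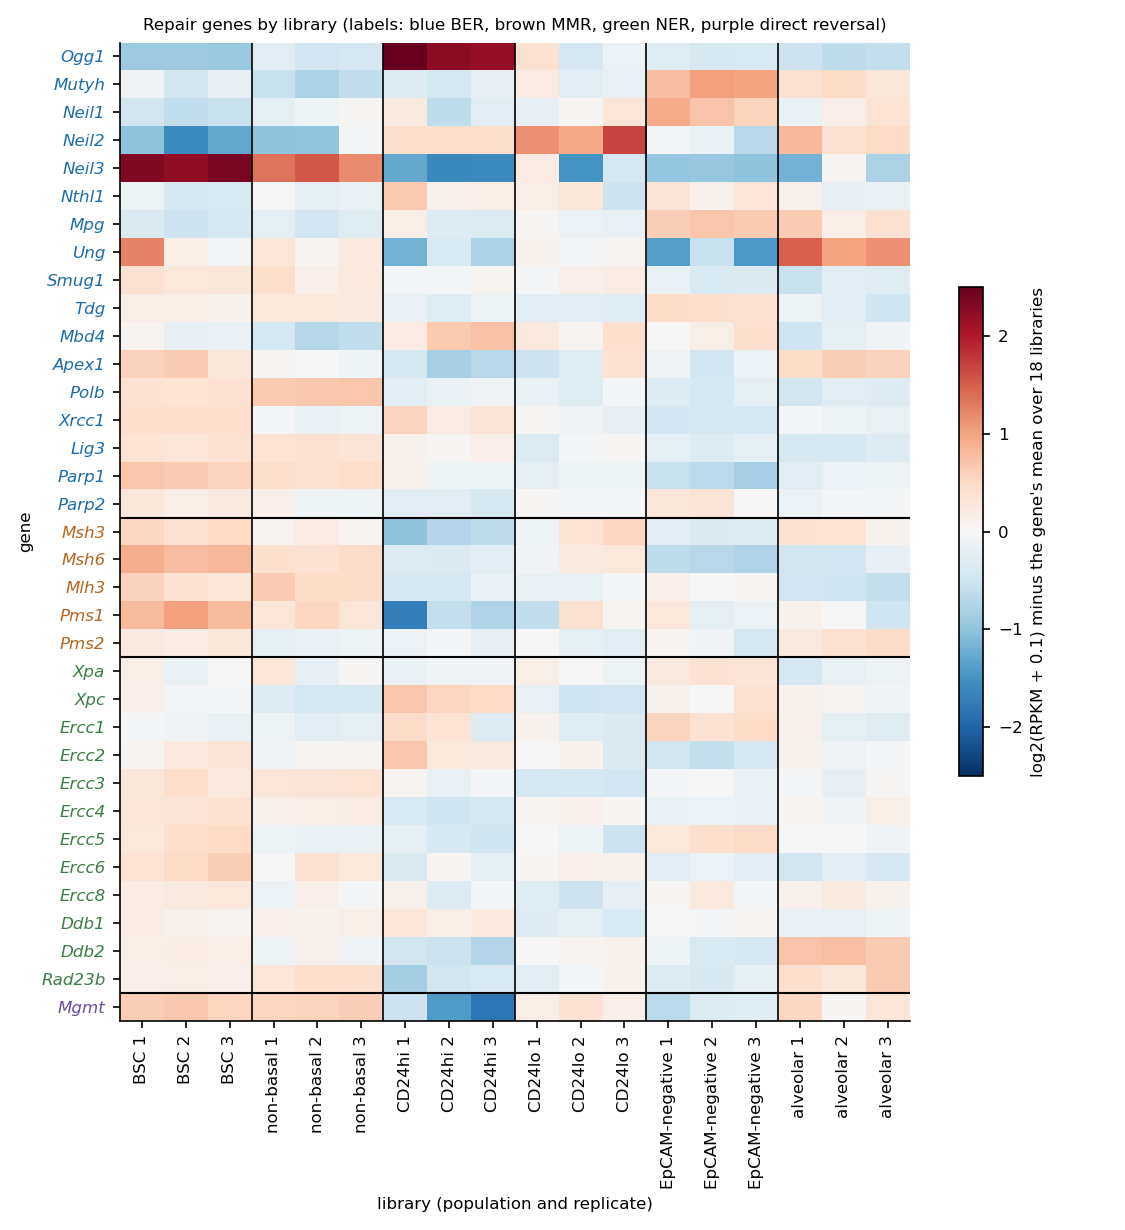
Heat map of the 35 repair genes (rows, grouped by pathway) in the 18 libraries (columns, 3 for each population); colour is log2(RPKM + 0.1) minus the mean of that gene over the libraries. The darkest cells are Ogg1 in the 3 CD24hi libraries and Neil3 in the 3 BSC libraries, and most other rows stay pale.

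Within the trachea, 14 of the 35 genes were called between the NGFR-positive and NGFR-negative fractions, 11 higher and 3 lower in BSCs. Among all genes tested 48.2% were called in this comparison, 21.9% higher and 26.2% lower. The libraries of the groups did not overlap for 21 of the 35 genes and for 64.9% of all genes. Of the BER genes 6 of 17 were higher and 3 lower, of the MMR genes 3 of 5 were higher and of the NER genes 2 of 12 were higher, with none lower in the last 2 pathways. In a fit of only these 6 libraries 5 NER genes were called, where 57.8% of all genes were called, and 7 with the mouse as a block, where 64% of all genes were. Rad23b, which binds Xpc, was the 1 lower in each, at -0.24 (adjusted p = 0.00338 without the block and 0.000304 with it). The median log2 fold change was 0.20 over the 35 genes and -0.02 over all genes. With library size in place of TMM, the median moved to 0.54 over the 35 genes and to 0.31 over all genes. The split of the 35 genes moved to 24 higher and 0 lower, where 43.2% of all genes were higher and 16.6% lower. Without non-basal replicate 3 the count of the 35 genes was 8, with 4 of them in BER, where 43.8% of all genes were called.

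BSCs compared with alveolar cells gave 22 calls, 16 higher and 6 lower in BSCs, where 66.1% of all genes were called, 30.5% higher and 35.6% lower. Groups did not overlap for 25 of the 35 genes, against 74.7% of all genes. The higher genes were 8 of BER, 3 of MMR and 5 of NER, and the lower genes 4 of BER and 2 of NER. The median was 0.24, against -0.09 over all genes. With library size alone the split was 24 higher and 2 lower, beside 44% and 24.3% of all genes. The medians were then 0.65 over the 35 genes and 0.29 over all genes.

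In the lung airway, 16 genes were called between CD24hi and CD24lo cells, 6 higher and 10 lower in CD24hi cells, where 55% of all genes were called, 27.8% higher and 27.2% lower. Groups did not overlap for 17 of the 35 genes, against 53.9% of all. All 3 MMR genes called were lower, as was Mgmt, whereas BER had 2 higher and 3 lower and NER 4 higher and 3 lower. The BER count was 8 without CD24hi replicate 1 and 3 without CD24hi replicate 2, where 58% and 51.5% of all genes were called. The median over the 35 genes was -0.11 and over all genes -0.06. With library size alone this split turned to 14 higher and 6 lower, beside 38.9% and 18% of all genes. The medians were then 0.18 over the 35 genes and 0.21 over all genes.

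CD24lo and alveolar cells of the same lungs differed in 16 of the 35 genes, 7 higher and 9 lower in CD24lo cells, where 48.4% of all genes were called, 24.2% in each direction. Groups did not overlap for 19 of the 35, against 55.7% of all genes. NER leaned to alveolar cells, with 1 gene higher and 5 lower in CD24lo cells, while BER had 4 higher and 3 lower and MMR 2 higher and 1 lower. The median was 0.02 over the 35 genes and 0.03 over all. EpCAM-negative cells, set against the mean of the 3 lung epithelial populations, gave 18 calls, 9 in each direction, where 69% of all genes were called, 35.5% higher and 33.4% lower. EpCAM-negative libraries did not overlap the others for 11 of the 35, against 39.1% of all genes. BER had 5 in each direction, MMR 1 and NER 3, and the median was -0.07 against -0.01 over all genes. The 5 comparisons share libraries, since each population but the non-basal and EpCAM-negative cells enters more than 1 of them, so their counts are not independent of each other.

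**Figure D2:**
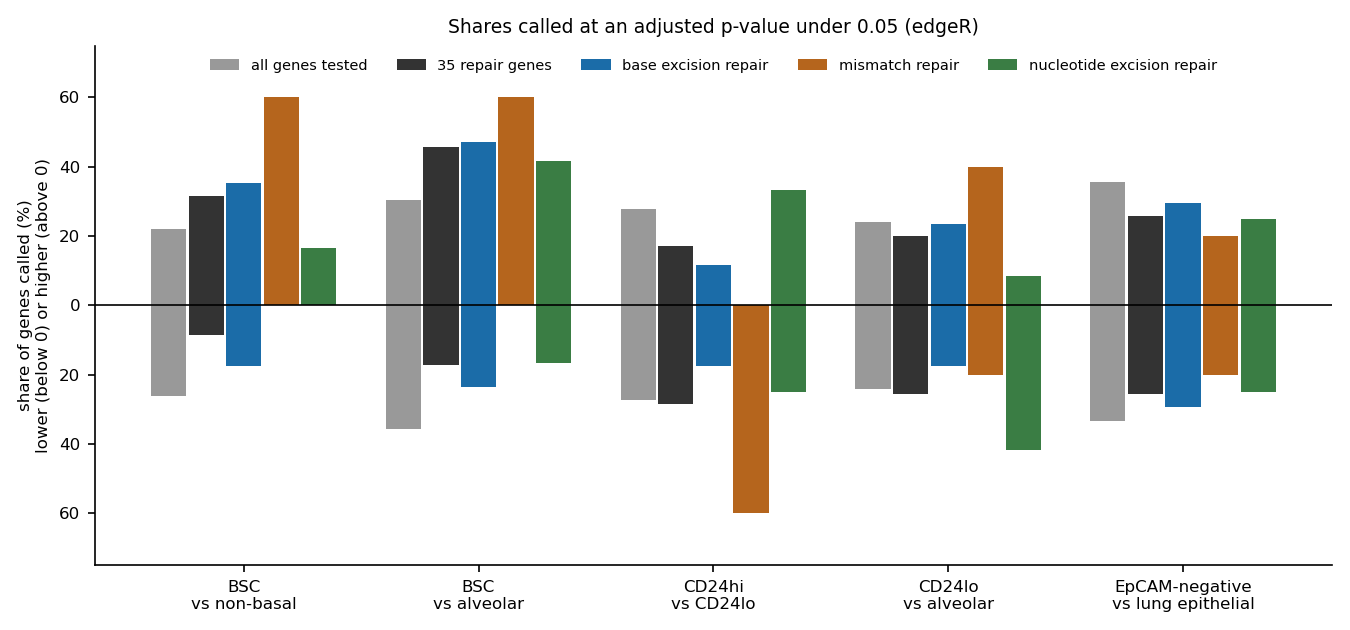
Share of genes called (y axis, percent; higher above 0 and lower below 0) in the 5 comparisons (x axis) for all genes tested, the 35 repair genes and each pathway. MMR stands at 3 of 5 genes higher in BSCs in both BSC comparisons, but only Msh6 is in both sets. The others are Msh3 and Pms2 against non-basal cells and Mlh3 and Pms1 against alveolar cells. MMR also stands at 3 of 5 lower in CD24hi cells. The NER bar points down in CD24lo cells against alveolar cells, with 5 of 12 genes lower.

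**Figure D3:**
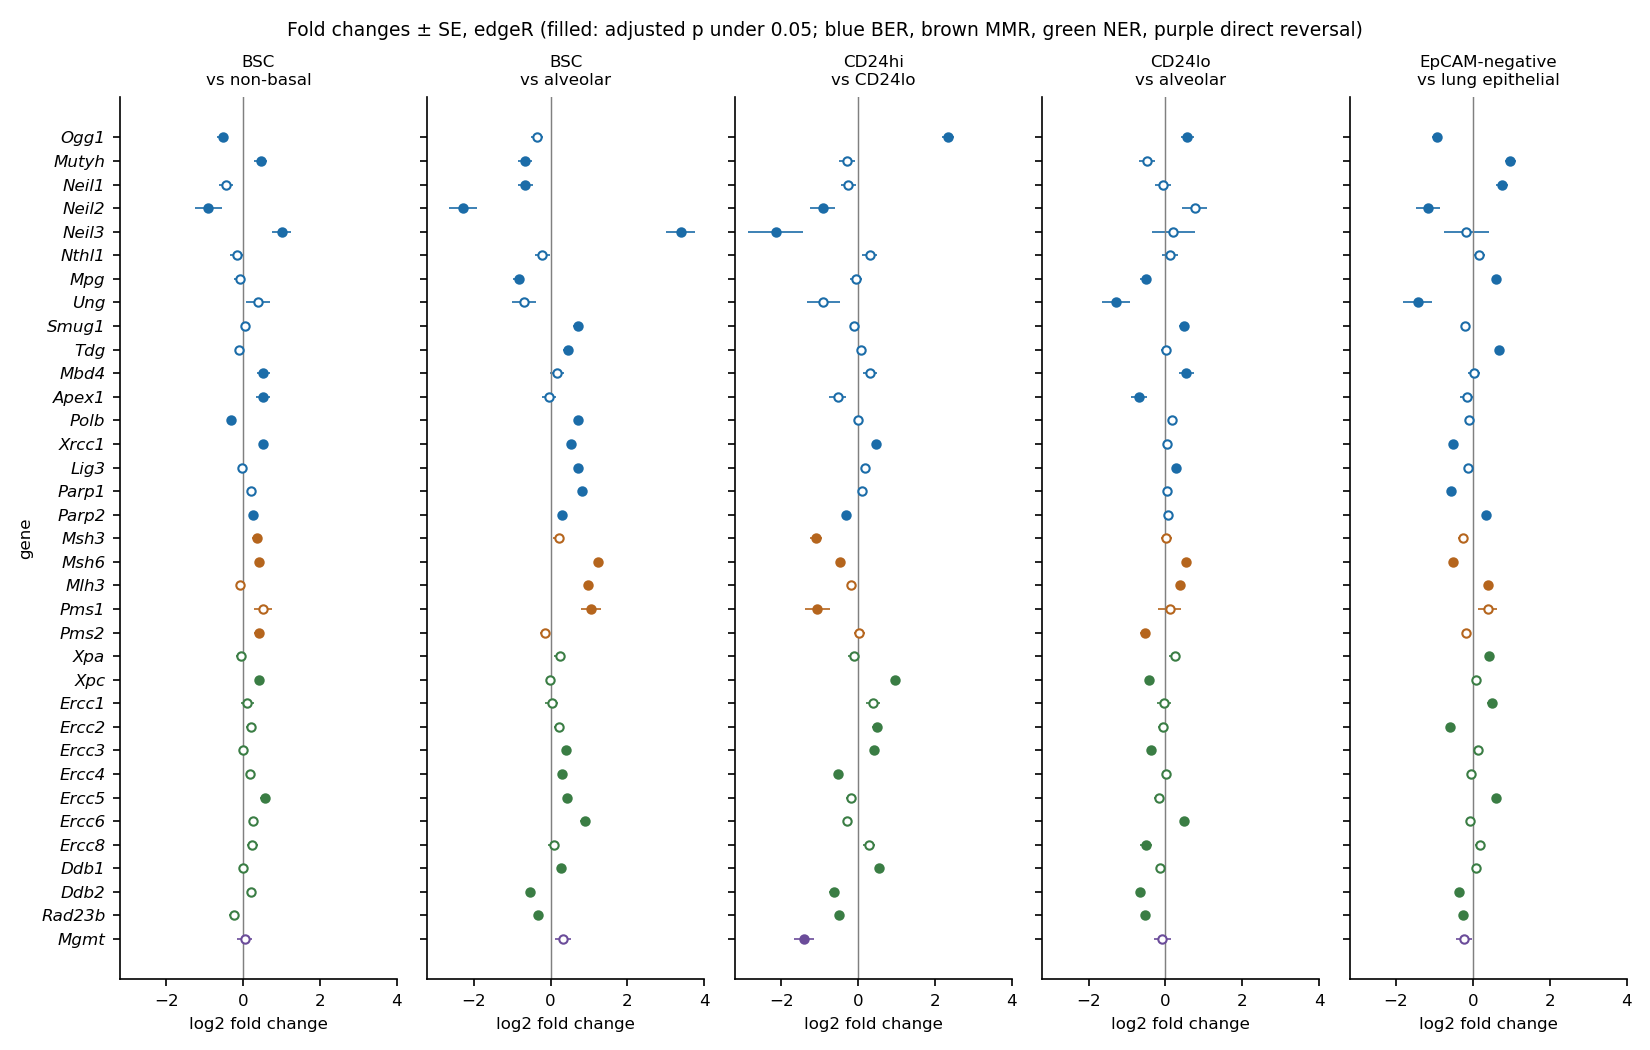
Log2 fold change (x axis) with its SE for each of the 35 genes (y axis) in the 5 comparisons; filled points have an adjusted p-value under 0.05 and open points do not. Neil3, at 3.38 in BSCs against alveolar cells, and Ogg1, at 2.34 in CD24hi against CD24lo cells, lie farthest to the right.

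Among the BER glycosylases that remove oxidised bases, Ogg1 stood apart. Ogg1 excises 8-oxoguanine opposite cytosine and lies on chromosome 6 from 113326972 to 113334877 (GRCm38.p6, the mm10 assembly). It was at 45.1, 38.2 and 37.3 RPKM in the CD24hi libraries and at 10.4, 5.97 and 7.23 RPKM in the CD24lo libraries. No library of any other population reached the lowest CD24hi library. The log2 fold change between the airway populations was 2.34 (SE 0.15, adjusted p = 1.1e-09), and it stayed between 2.17 and 2.62 under every alternative tried.

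BSCs held the lowest Ogg1 of the study, at 4.23, 4.22 and 4.13 RPKM, below all 3 non-basal libraries at 6.53, 5.73 and 5.92 RPKM. The difference was -0.53 (SE 0.14, adjusted p = 0.00493), and with library size alone it was not called. CD24lo cells were called above the alveolar libraries, at 5.53, 5.12 and 5.29 RPKM, by 0.57 (SE 0.16, adjusted p = 0.00652). That call rested on CD24lo replicate 1, which also had the most Foxj1 of the CD24lo libraries, at 107.7 RPKM against 51.5 and 52.6 RPKM. It also had the most of the endothelial marker Pecam1, at 72.7 RPKM against 25.2 and 23.7 RPKM, of Col1a1, a collagen of stromal cells, at 22.0 RPKM against 13.5 and 14.3 RPKM, and of the alveolar marker Sftpc, at 5709 RPKM against 2697 and 4243 RPKM. The club cell marker Scgb1a1 and the basal marker Krt5 were lowest in it among the 3 CD24lo libraries. Their part in the call was not tested. Without this library the difference was 0.31 (adjusted p = 0.0673). The ciliated markers differed in the same direction between the airway populations: their 5 genes summed to 4626 to 5548 RPKM in CD24hi cells and to 353 to 860 RPKM in CD24lo cells, and all 5 were called higher in CD24hi cells. Between the tracheal populations 4 of the 5 were called lower in BSCs and Tppp3 was not called (0.10, adjusted p = 0.799), with sums of 183 to 256 RPKM in BSCs and 227 to 341 RPKM in non-basal cells. Alveolar cells had sums of 116 to 127 RPKM, and all 5 were called higher in CD24lo than in alveolar cells. The part of ciliated cell content in the Ogg1 differences was not tested.

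The sequence before a transcript start of Ogg1 is shown because this gene differed most between the airway populations. It is from RefSeq (GRCm38.p6, plus strand, chr6:113326726-113326975) and ends at the base before that annotated start. Its last bases lie within the gene as given above, from 113326972. Capitals mark the ETS-type letters CCGGAAG, at 126 and 102 bases before the start, and the CCAAT box, at 194 and 168 bases before it, read on either strand.
Ogg1 upstream: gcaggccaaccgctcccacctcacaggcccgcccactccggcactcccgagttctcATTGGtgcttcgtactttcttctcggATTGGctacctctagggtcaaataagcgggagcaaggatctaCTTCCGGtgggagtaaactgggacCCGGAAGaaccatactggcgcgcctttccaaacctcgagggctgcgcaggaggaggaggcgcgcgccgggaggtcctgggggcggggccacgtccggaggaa

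Windows of 300 bases, 250 before and 50 after a start, were available for 30 of the 35 genes. CCGGAAG was found in 8.86% of all 32851 such windows and in those of 6 of the repair genes, Ercc1, Mpg, Nthl1, Ogg1, Pms1 and Pms2. CCAAT was found in 37.4% of all windows and in those of 19 of the repair genes. The X-box, the site of the RFX factors of ciliated cells, was in 2.17% of all windows and in 0 of the 30 repair genes. The E2F-type letters TTCCCGC were in 4.6% of windows, Ercc5, Mbd4, Msh6 and Pms1 included. A longer E2F-type string, TTTGGCGC, was in 0.514% of windows and in Msh3. Of the other letters searched, always on both strands, the GC box GGGCGG was in 35.7% of windows and 23 repair genes, TGACNNNGC of the antioxidant response element in 12.4% and in Mgmt, Neil1 and Pms2, and the CRE TGACGTCA in 1.79% and in Tdg. The NRF1 site was in 0.971% and in Ercc6, and the YY1-type site in 0.633% and in 0 of the 30.

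Part of the Ogg1 exons, 10.6% of their bases in GENCODE vM21, lies over Camk1 on the opposite strand, and the sources used here do not say whether reads were counted by strand. Camk1, a calcium-dependent kinase, was at 38.2 ± 5.96 RPKM in CD24hi cells and 21.4 ± 2.93 RPKM in CD24lo cells, a log2 difference of 0.83 (SE 0.11, adjusted p = 5.14e-06). It was highest in alveolar cells, at 56.9 ± 2.59 RPKM, where Ogg1 was near its lowest.

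The NEIL glycosylases, which remove oxidised pyrimidines, went separate ways. Neil3, on chromosome 8 from 53586867 to 53639065, was at 1.92, 1.79 and 2.01 RPKM in BSCs, from 146 to 160 reads a library. Non-basal cells had 0.938, 1.09 and 0.824 RPKM, and the alveolar libraries 0.0782, 0.327 and 0.134 RPKM. Every BSC library lay above every non-basal library, and every tracheal library above every lung library.

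Against non-basal cells the Neil3 difference was 1.00 (SE 0.26, adjusted p = 0.00378) and against alveolar cells 3.38 (SE 0.38, adjusted p = 4.12e-07). The lung libraries held only 1 to 9 Neil3 reads each. Its call between CD24hi and CD24lo cells, at -2.14, rested on 4 reads in all in CD24hi cells and was lost without CD24lo replicate 1, at -1.34 (adjusted p = 0.226). Neil3 is known to be expressed in proliferating cells. Of the 9 proliferation genes of the comparison list, 8 were higher in BSCs than in non-basal cells, with a median of 1.06, and 8 than in alveolar cells, with a median of 2.76. Tyms, which makes thymidylate, was called in neither comparison (0.12, adjusted p = 0.533, and -0.08, adjusted p = 0.67). Their sum was 62.6 to 78.5 RPKM in BSCs, 32.0 to 32.3 RPKM in non-basal cells and 14.4 to 18.9 RPKM in alveolar cells, and their part in the repair gene differences was not tested.

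Neil2 was lowest in BSCs, at 0.267, 0.144 and 0.207 RPKM, and highest in CD24lo cells, at 1.54, 1.33 and 2.29 RPKM. In alveolar cells it was at 1.197, 0.865 and 0.949 RPKM, above every BSC library (-2.27, SE 0.36, adjusted p = 2.48e-05). CD24hi cells, at 0.907, 0.890 and 0.904 RPKM, lay below all CD24lo libraries (-0.92, SE 0.32, adjusted p = 0.0221), a call lost without CD24hi replicate 2 or CD24lo replicate 3 and with library size alone. EpCAM-negative cells, at 0.629, 0.561 and 0.358 RPKM, were below every lung epithelial library (-1.16, SE 0.30, adjusted p = 0.00255). The lower value in BSCs than in non-basal cells (-0.90, adjusted p = 0.0445) overlapped between the groups and was lost in 9 of 15 alternatives. Without non-basal replicate 3 it was -0.39 (adjusted p = 0.394).

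Neil1 and Mutyh shared their highest population. Neil1 was at 14.0, 12.0 and 10.8 RPKM in EpCAM-negative cells, above all 15 other libraries, and higher than the lung epithelial mean by 0.75 (SE 0.15, adjusted p = 0.000271). Mutyh, which excises adenine paired with 8-oxoguanine, was at 2.41, 2.90 and 2.81 RPKM there, again above all other libraries, and higher than the lung epithelial mean by 0.98 (SE 0.15, adjusted p = 1.21e-05).

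In the alveolar libraries Neil1 was at 6.48, 8.02 and 9.32 RPKM, against 5.32, 4.77 and 4.97 RPKM in BSCs (-0.66, SE 0.19, adjusted p = 0.00638). Mutyh was at 1.83, 1.96 and 1.69 RPKM in alveolar cells and at 1.29, 0.971 and 1.19 RPKM in BSCs (-0.67, SE 0.18, adjusted p = 0.00401). Neither pair of groups overlapped, but with library size alone neither was called. Neil1 was also lower in BSCs than in non-basal cells, without overlap or a call (-0.44, adjusted p = 0.0565). It was called in 4 of 15 alternatives. These were limma voom (adjusted p = 0.0213), DESeq2 (0.0426) and a fit of only these libraries without a mouse block (0.00718) and with it (0.00293). Mutyh was lowest in non-basal cells, at 0.903, 0.749 and 0.863 RPKM, and its call against BSCs (0.45, adjusted p = 0.0426) was lost in 9 of 15 alternatives, among them the fit of only these libraries without a mouse block (adjusted p = 0.0638) and with it (adjusted p = 0.0505). Nthl1, the remaining glycosylase for oxidised pyrimidines, lay between 3.73 and 8.52 RPKM and was called in none of the 5 comparisons.

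Of the glycosylases for uracil and mispaired thymine, Ung was highest in alveolar cells. Ung, the main uracil-DNA glycosylase, was at 2.61, 1.799 and 2.02 RPKM in alveolar cells and at 0.922, 0.843 and 0.878 RPKM in CD24lo cells. The groups did not overlap, and CD24lo cells were lower (-1.28, SE 0.36, adjusted p = 0.00754). BSC replicate 1 stood apart from its group for this gene, at 2.16 RPKM against 0.975 and 0.835 RPKM. The comparison of BSCs with alveolar cells was not called with it in the main fit (-0.70, adjusted p = 0.0581) and was called without it (-1.24, adjusted p = 0.000649). In all, 5 of 16 alternatives called it. Those that kept this library were a CPM filter of 1 (adjusted p = 0.0489), limma voom (0.023), thinned tracheal libraries (0.0483) and the block by the number in the title (0.0135). EpCAM-negative cells had 0.268, 0.551 and 0.254 RPKM, and their difference from the lung epithelial mean (-1.43, SE 0.38, adjusted p = 0.00275) came with an overlap with CD24hi cells, at 0.324, 0.636 and 0.450 RPKM.

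Tdg, which removes thymine mispaired with guanine and acts in DNA demethylation, was at 4.19, 4.03 and 3.88 RPKM in EpCAM-negative cells, above every other library. Its lung epithelial levels lay between 2.10 and 2.77 RPKM, a difference of 0.69 (SE 0.09, adjusted p = 1.74e-06). Mbd4, a methyl-CpG-binding thymine glycosylase, was at 1.64, 1.35 and 1.39 RPKM in BSCs and at 1.13, 0.921 and 0.990 RPKM in non-basal cells (0.52, SE 0.17, adjusted p = 0.0167). These groups stayed apart, but the call was lost without BSC replicate 1, non-basal replicate 2 or non-basal replicate 3. In CD24lo cells Mbd4 was at 1.88, 1.64 and 2.12 RPKM and in alveolar cells at 1.08, 1.31 and 1.49 RPKM (0.54, SE 0.19, adjusted p = 0.0293), a call lost in 7 of 15 alternatives, among them the fit of only these libraries without a mouse block (adjusted p = 0.0573) and with it (adjusted p = 0.0642).

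Mpg, the glycosylase for alkylated purines, was at 11.8, 12.4 and 12.1 RPKM in EpCAM-negative cells and at 12.0, 8.60 and 10.01 RPKM in alveolar cells. BSCs had 5.98, 5.38 and 5.84 RPKM, below every alveolar library (-0.83, SE 0.14, adjusted p = 4.69e-05). Of its 3752 exonic bases in GENCODE vM21 35.7% lie over Nprl3 on the opposite strand, while the length counted over was 1745 bases. The Nprl3 difference between BSCs and alveolar cells was -0.07 (SE 0.10, adjusted p = 0.562). The part of the shared exons in the Mpg difference was not tested. Smug1, a further uracil glycosylase, ranged from 2.90 to 5.95 RPKM and was called higher in BSCs than in alveolar cells, by 0.71, and in CD24lo than in alveolar cells, by 0.48.

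Of the 6 genes of the later steps of BER, 3 were higher in BSCs than in non-basal cells and 1 lower, and 5 were higher than in alveolar cells with 0 lower. Of all genes 21.9% were higher and 26.2% lower in the first comparison, and 30.5% and 35.6% in the second. The genes higher in the first were Xrcc1, Apex1 and Parp2. The Apex1 and Parp2 calls were both lost without BSC replicate 1, non-basal replicate 2 or non-basal replicate 3. In a fit of only the tracheal libraries Parp1 was called higher too, without a mouse block (adjusted p = 0.0121) and with it (adjusted p = 0.00195). Xrcc1, the scaffold of the ligation step, was at 22.9, 22.9 and 23.0 RPKM in BSCs and at 16.5, 15.4 and 15.8 RPKM in non-basal cells. BSCs exceeded non-basal cells by 0.53 (SE 0.09, adjusted p = 7.49e-05) and alveolar cells by 0.54 (SE 0.09, adjusted p = 4.13e-05), and these groups did not overlap. CD24hi cells reached the BSC range, at 25.3, 19.9 and 21.4 RPKM, and exceeded CD24lo cells by 0.46 (adjusted p = 0.000351). EpCAM-negative cells were lowest, at 12.3 to 12.6 RPKM (-0.51, adjusted p = 1.22e-05).

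Parp1, the main poly(ADP-ribose) polymerase of strand breaks, was at 23.2, 22.4 and 21.1 RPKM in BSCs and at 11.9, 13.0 and 13.2 RPKM in alveolar cells. The BSC libraries were the highest of all 18, and the difference from alveolar cells was 0.81 (SE 0.09, adjusted p = 2.62e-07). Its lowest libraries were the EpCAM-negative ones, at 9.69, 9.06 and 8.0 RPKM, below the lung epithelial mean (-0.57, SE 0.08, adjusted p = 2.68e-06). Parp2 varied less, from 10.3 to 16.9 RPKM.

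Polb did not follow Xrcc1. The gap-filling polymerase was at 30.2, 30.4 and 30.7 RPKM in non-basal cells, above BSCs at 24.5, 24.2 and 24.7 RPKM, and both were above all lung libraries, at 13.8 to 18.5 RPKM. BSCs were lower than non-basal cells on the TMM scale (-0.32, SE 0.08, adjusted p = 0.00472). With library size alone the value was 0.03 (adjusted p = 0.79), and with a correction for gene length it was -0.18 (adjusted p = 0.126). Lig3, the ligase of this step, ranged from 4.72 to 8.37 RPKM and was called higher in BSCs than in alveolar cells, by 0.72. It shares 25.1% of its exonic bases with Rffl.

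Apex1, the abasic-site endonuclease, was at 4.96, 5.18 and 4.02 RPKM in BSCs, at 3.47, 3.33 and 3.04 RPKM in non-basal cells and at 4.58, 5.07 and 4.94 RPKM in alveolar cells. CD24lo cells had 2.25, 2.63 and 4.23 RPKM, below every alveolar library (-0.70, SE 0.21, adjusted p = 0.0109). That call was lost without CD24lo replicate 1 (adjusted p = 0.0636) or replicate 2 (adjusted p = 0.0541) and with only these libraries fitted (adjusted p = 0.0609, or 0.0437 with the mouse as a block), and the call against non-basal cells (0.52, SE 0.18, adjusted p = 0.0217) without any of 4 of the 6 libraries compared. Apex1 shares 61.7% of its exonic bases with Pip4p1 on the other strand. Pip4p1 differed by -0.69 between CD24lo and alveolar cells (adjusted p = 5.4e-06), the same size as Apex1. The Pip4p1 difference between BSCs and non-basal cells was -0.03 (adjusted p = 0.799), where Apex1 was higher. Between BSCs and alveolar cells Pip4p1 differed by -0.85 (adjusted p = 1.67e-07) and Apex1 by -0.04 (adjusted p = 0.854).

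In the MMR pathway the mean level of both MutS genes was highest in BSCs. Msh6, which pairs to find single mismatches, lies on chromosome 17 from 87975050 to 87990892 and was at 14.6, 13.3 and 13.9 RPKM in BSCs. Non-basal cells had 10.4, 9.94 and 10.9 RPKM and alveolar cells 5.64, 5.53 and 6.72 RPKM. No BSC library overlapped either group. The difference was 0.42 (SE 0.09, adjusted p = 0.00105) from non-basal cells and 1.22 (SE 0.10, adjusted p = 4.16e-09) from alveolar cells.

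Within the lung, Msh6 was at 7.41, 9.10 and 9.32 RPKM in CD24lo cells, above CD24hi cells at 6.11, 6.03 and 6.44 RPKM. CD24lo cells also exceeded alveolar cells, by 0.53 (SE 0.10, adjusted p = 0.000249). The CD24hi libraries were lower than CD24lo on the TMM scale (-0.47, SE 0.10, adjusted p = 0.000516) and not called with library size alone. EpCAM-negative cells were the lowest of all, at 4.93, 4.74 and 4.57 RPKM (-0.52, SE 0.08, adjusted p = 2.46e-05).

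Msh3, the partner for larger loops, was lowest in CD24hi cells. It lies on chromosome 13 from 92211878 to 92355004 and was at 1.89, 2.31 and 2.47 RPKM there, below every other library. CD24lo cells had 3.62, 4.98 and 5.72 RPKM, a difference of -1.10 (SE 0.15, adjusted p = 5.91e-06) that no alternative removed. BSCs, at 5.64, 5.12 and 5.56 RPKM, lay above non-basal cells at 4.09, 4.48 and 4.07 RPKM (0.37, SE 0.13, adjusted p = 0.0273), a call lost in 5 of 15 alternatives. They also lay above alveolar cells at 5.00, 4.92 and 4.15 RPKM, by 0.21 without a call (adjusted p = 0.179). That difference was called in 3 of 16 alternatives, which were library size alone (0.62, adjusted p = 0.00042), a fit of only these libraries (0.30, adjusted p = 0.014) and that fit with the number in the title as a block (0.30, adjusted p = 0.0142). EpCAM-negative cells had 3.15, 3.01 and 3.07 RPKM.

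The MutL genes did not share a pattern. Pms1 was at 2.03, 2.38 and 2.03 RPKM in BSCs, above every other library, and at 1.40, 1.67 and 1.42 RPKM in non-basal cells, where the difference was not called (0.52, adjusted p = 0.0802). In a fit of only these libraries it was called without a mouse block (0.51, adjusted p = 0.00573) and with it (0.51, adjusted p = 0.000919). Alveolar cells had 1.19, 1.12 and 0.766 RPKM, so BSCs were higher by 1.05 (SE 0.27, adjusted p = 0.00214).

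CD24hi cells had the least Pms1, at 0.274, 0.709 and 0.623 RPKM, against 0.698, 1.49 and 1.18 RPKM in CD24lo cells. The groups overlapped, and the call (-1.06, SE 0.32, adjusted p = 0.00956) was lost without CD24lo replicate 2 and with only these libraries fitted (adjusted p = 0.0705), though not in that fit with the mouse as a block (adjusted p = 0.0121). EpCAM-negative cells had 1.38, 0.953 and 1.00 RPKM.

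Mlh3 followed the organ. It was at 6.08, 5.23 and 4.98 RPKM in BSCs and at 6.27, 5.54 and 5.56 RPKM in non-basal cells, and every tracheal library was above every lung library. Alveolar cells were lowest, at 2.86, 2.83 and 2.64 RPKM, which put BSCs higher by 0.97 (SE 0.10, adjusted p = 1.96e-07) and CD24lo cells, at 3.53, 3.53 and 3.86 RPKM, by 0.39 (SE 0.11, adjusted p = 0.00615). CD24hi cells had 3.02, 2.98 and 3.56 RPKM and were not called against CD24lo cells. EpCAM-negative cells, at 4.41, 4.06 and 4.11 RPKM, exceeded the lung epithelial mean by 0.40 (SE 0.08, adjusted p = 0.000356), a call lost with a correction for gene length (adjusted p = 0.417).

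Pms2, the endonuclease subunit of the main MutL complex, was highest in alveolar cells, at 3.41, 3.79 and 4.06 RPKM, where the other 4 MMR genes were not. CD24lo cells had 2.90, 2.46 and 2.39 RPKM, lower without overlap (-0.53, SE 0.14, adjusted p = 0.00371). BSCs, at 3.37, 3.32 and 3.51 RPKM, overlapped alveolar cells and exceeded non-basal cells, at 2.42, 2.56 and 2.66 RPKM, by 0.41 (SE 0.12, adjusted p = 0.00963). CD24hi cells had 2.61, 2.84 and 2.51 RPKM and EpCAM-negative cells 3.01, 2.76 and 2.12 RPKM, neither called in its comparison. Pms2 shares 5.9% of its exonic bases with genes on its own strand.

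**Figure D4:**
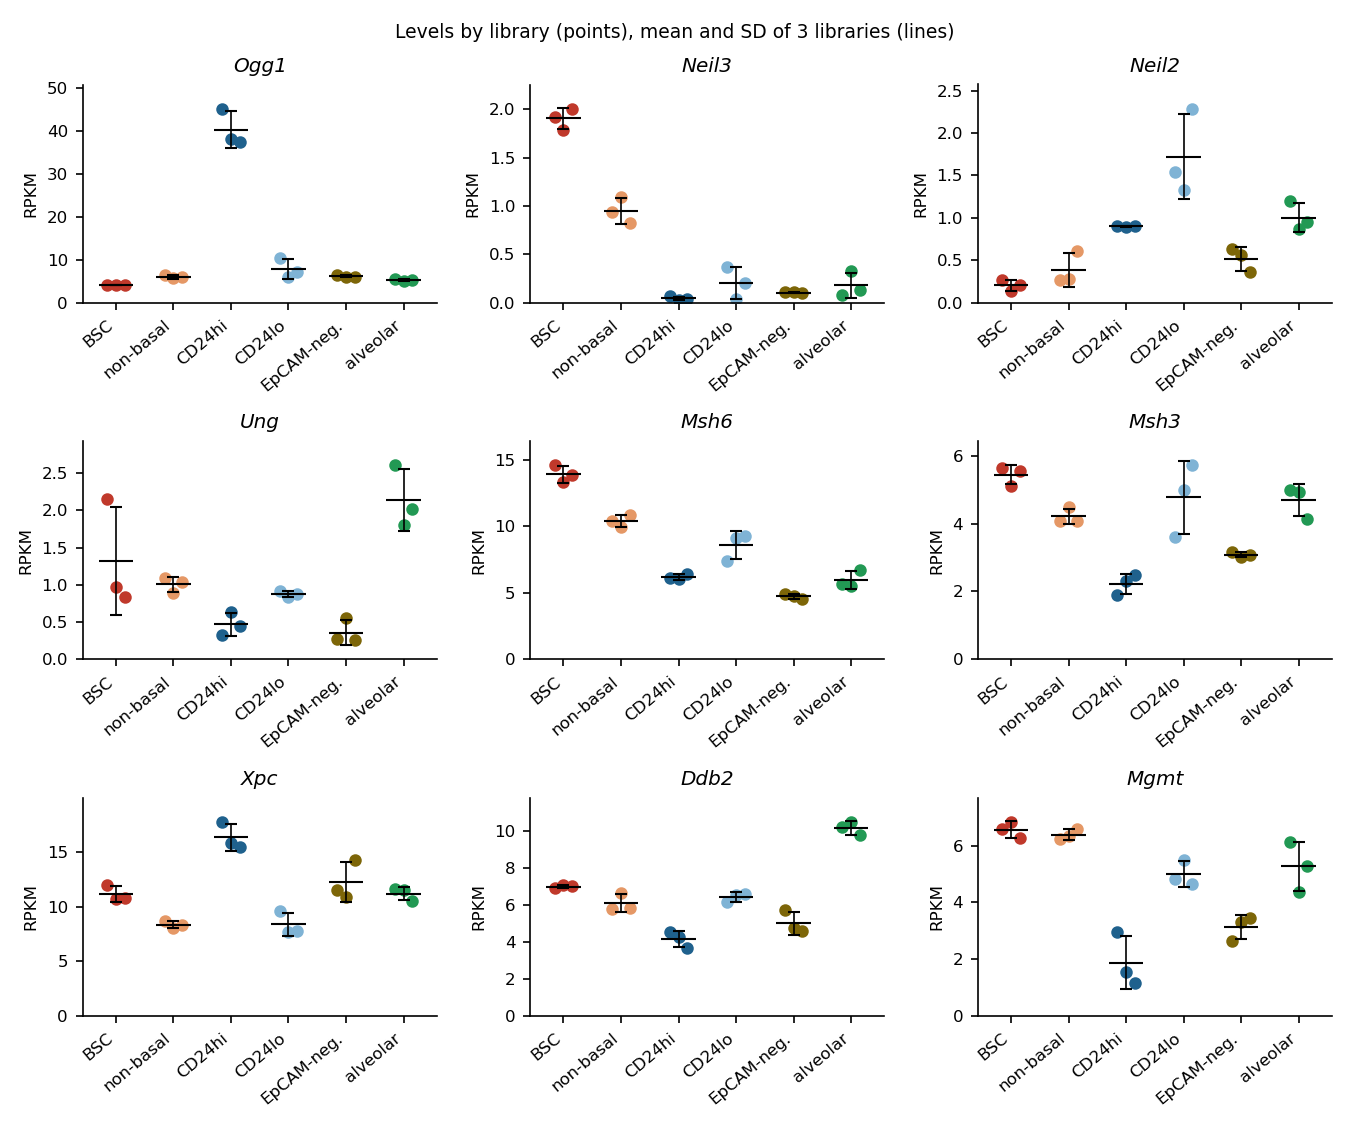
RPKM (y axis, from 0) of 9 repair genes in each library (points), by population (x axis), with the mean and SD of 3 libraries as lines. Ogg1 is at 37.3 RPKM or more in CD24hi cells and at 10.4 RPKM or less elsewhere, and Ung shows BSC replicate 1 at 2.16 RPKM apart from the other BSC libraries.

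The NER genes that recognise lesions differed between the lung populations in opposite directions. Xpc, which opens global genome repair and lies on chromosome 6 from 91489305 to 91515888, was at 17.8, 15.8 and 15.4 RPKM in CD24hi cells, above every other library. CD24lo cells had 9.58, 7.70 and 7.79 RPKM, a difference of 0.96 (SE 0.11, adjusted p = 9e-07). It was higher in BSCs, at 11.9, 10.7 and 10.7 RPKM, than in non-basal cells, at 8.70, 8.07 and 8.28 RPKM (0.41, SE 0.11, adjusted p = 0.00368). Rad23b, which stabilises Xpc, went the other way in the airway (-0.48, adjusted p = 0.00304) but was not called there with library size alone. Its mean was highest in alveolar cells, and its levels over all libraries ran from 16.4 to 46.8 RPKM.

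The 2 subunits of the ultraviolet-lesion sensor also parted. Ddb1, which is shared with other CUL4 ubiquitin ligases, was at 104, 93.8 and 100.1 RPKM in CD24hi cells and at 67.5, 72.6 and 65.2 RPKM in CD24lo cells, the lowest of all populations. The difference was 0.54 (SE 0.08, adjusted p = 1.1e-05). Ddb2, the damage-binding subunit, was at 4.52, 4.25 and 3.69 RPKM in CD24hi cells and at 6.14, 6.55 and 6.60 RPKM in CD24lo cells (-0.63, SE 0.12, adjusted p = 0.000197). Neither gene overlapped between the airway populations.

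Alveolar cells had the most Ddb2. It lies on chromosome 2 from 91211545 to 91237132 and was at 10.2, 10.5 and 9.79 RPKM in these libraries, above every other library. CD24lo cells were lower by the fit (-0.66, SE 0.11, adjusted p = 9.65e-05). BSCs, at 6.94, 7.06 and 7.01 RPKM, were lower too (-0.54, SE 0.11, adjusted p = 0.000252), though not with library size alone. Ddb2 shares 23.8% of its exonic bases with Acp2, the lysosomal acid phosphatase gene. Acp2 was also lower in CD24lo than in alveolar cells (-0.84, adjusted p = 7.73e-07), but in EpCAM-negative cells it was higher than the lung epithelial mean by 0.99 (adjusted p = 6.31e-10) where Ddb2 was lower (-0.37, adjusted p = 0.00231).

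Of the genes of transcription-coupled repair, Ercc6, the CSB translocase, was at 3.35, 3.54 and 3.51 RPKM in CD24lo cells and at 2.33, 2.67 and 2.39 RPKM in alveolar cells (0.49, SE 0.13, adjusted p = 0.00333). BSCs were highest, at 4.13 to 5.04 RPKM, and exceeded alveolar cells by 0.89 (adjusted p = 4.23e-06), the largest difference of the 12 NER genes in that comparison. Ercc8, the CSA subunit, stayed between 1.96 and 3.43 RPKM over all libraries, and its lower value in CD24lo than in alveolar cells (-0.50, adjusted p = 0.0142) was not called in a fit of only these libraries, without a mouse block (adjusted p = 0.0681) or with it (adjusted p = 0.108).

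Of the TFIIH helicases, Ercc2 was at 12.4, 9.21 and 8.96 RPKM in CD24hi cells and at 7.63, 8.08 and 5.91 RPKM in CD24lo cells. CD24hi cells were higher (0.49, SE 0.13, adjusted p = 0.00433), a call lost when only these 6 libraries were fitted (adjusted p = 0.0617) and kept with the mouse as a block in that fit (adjusted p = 0.0225). EpCAM-negative cells had the lowest libraries, at 5.50, 5.00 and 5.78 RPKM (-0.60, SE 0.11, adjusted p = 0.000149). Ercc2 shares 17.8% of its exonic bases with Klc3, a kinesin light chain gene, which differed in the same directions, by 0.71 in the airway (adjusted p = 0.000262) and by -2.04 in EpCAM-negative cells (adjusted p = 2.18e-10). Ercc3, with no shared protein-coding exon, ranged from 7.67 to 14.6 RPKM and was higher in CD24hi than in CD24lo cells by 0.41 (adjusted p = 0.00131). That call too was lost when only these libraries were fitted (adjusted p = 0.0534) and kept with the block (adjusted p = 0.0438).

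Among the incision factors, Ercc5 was at 7.49, 8.48 and 8.85 RPKM in BSCs and at 5.71, 5.54 and 5.55 RPKM in non-basal cells. Its difference of 0.56 (SE 0.11, adjusted p = 0.000376) was the largest of the NER genes in trachea. EpCAM-negative cells, at 7.53, 8.36 and 8.70 RPKM, lay above every lung epithelial library, and above the lung epithelial mean by 0.60 (SE 0.09, adjusted p = 1.52e-05). Xpa ranged from 8.12 to 14.0 RPKM, Ercc1 from 7.58 to 14.5 RPKM and Ercc4 from 2.44 to 4.55 RPKM over all libraries. Xpa and Ercc1 were called higher in EpCAM-negative cells, by 0.42 and 0.49, and Ercc4 lower in CD24hi than in CD24lo cells (-0.52, adjusted p = 3.51e-05), which left it apart from its partner Ercc1 there (0.39, adjusted p = 0.075).

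Mgmt, the O6-methylguanine methyltransferase on chromosome 7 from 136894463 to 137128193, was lowest in CD24hi cells. It was at 2.95, 1.54 and 1.15 RPKM there and at 4.83, 5.51 and 4.64 RPKM in CD24lo cells, without overlap (-1.40, SE 0.25, adjusted p = 0.000144). This call held in every alternative, with values from -1.88 to -1.12. The trachea did not separate it, with 6.60, 6.85 and 6.27 RPKM in BSCs and 6.24, 6.35 and 6.60 RPKM in non-basal cells (0.04, adjusted p = 0.892). Alveolar cells had 6.13, 4.38 and 5.30 RPKM and EpCAM-negative cells 2.65, 3.33 and 3.44 RPKM, which overlapped CD24hi cells.

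Other genes of these pathways were counted for context. Of 7 further MMR genes, the clamp, its loader and Exo1, 6 were higher in BSCs than in non-basal cells, with a median of 0.65, and 4 than in alveolar cells, with none lower. Exo1, the mismatch exonuclease, differed most, by 1.27 in trachea and 3.40 from alveolar cells. Of 7 further BER genes 2 were higher in BSCs than in non-basal cells and 5 than in alveolar cells, with 1 lower there. Of 17 further NER genes 3 were higher and 1 lower against non-basal cells, and 6 higher and 4 lower against alveolar cells. The shares of all genes were 21.9% higher and 26.2% lower against non-basal cells, and 30.5% and 35.6% against alveolar cells.

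Between the airway populations, 7 of the 17 further NER genes were higher in CD24hi cells and 2 lower, 3 of the 7 BER genes higher and 1 lower, and 3 of the 7 MMR genes higher and 1 lower, beside 27.8% and 27.2% of all genes. Cetn2, the centrin that binds Xpc and also serves in centrioles, was at 174 ± 35 RPKM in CD24hi cells and 45.9 ± 6.09 RPKM in CD24lo cells (1.92, SE 0.13, adjusted p = 2.36e-09). Rfc2, a clamp-loader subunit, was at 100.7 ± 12.4 RPKM and 21.6 ± 7.70 RPKM in the same order (2.22, SE 0.18, adjusted p = 1.16e-08). In EpCAM-negative cells Tdp1, which clears blocked DNA ends, was the BER gene of this list that differed most, higher by 1.23 (adjusted p = 2.17e-09). All 4 stromal markers were called higher in EpCAM-negative cells. They summed to 3885 to 4158 RPKM in these cells and to 15.2 to 196 RPKM in the lung epithelial libraries. The 4 leukocyte markers were also called higher there, with sums of 17.3 to 60.1 RPKM against 5.63 to 16.8 RPKM. The part of either cell type in the differences of EpCAM-negative cells was not tested.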

How the data were processed

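Reads were aligned by the authors to mm10 with Rsubread and assigned to Entrez genes with featureCounts, after bcl2fastq 1.8.4 by the submitters' processing notes. The deposited files hold raw read counts per gene, without normalization, and the gene length that the authors counted over (unit other). The series-wide table repeats these counts, so it was left out. Whether strand was used in counting is not given in the sources used here. Shares of exonic bases were taken over all GENCODE vM21 exons of a gene. These differ from the exons that the authors counted over, whose shares were not computed. The part of shared exons in the difference of any member was not tested. Every row named a gene, and 25275 of 27179 identifiers had a symbol in the RefSeq gene table of GRCm38.p6.

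Genes over a CPM of 0.2 in 3 or more libraries were retained, scaled by TMM and tested in R 4.3.3 with edgeR 4.0.16 (glmQLFit and glmQLFTest) in 1 fit of all 18 libraries. Alternatives were RLE factors, limma 3.58.1 (voom), other filters, DESeq2 1.42.0, library size alone, only the libraries compared, a replicate block, thinned tracheal libraries, a gene length correction and leaving out each library. The SE was the log2 fold change divided by the square root of the F statistic. The workflow was tested on simulated data. Members and lists were chosen with earlier results of these data known. Values of each library are given for the MMR genes, Mgmt and, in each comparison, up to 4 members a direction with the largest change among those called without overlap of CPM; partner and marker genes are named where they differ most in their list, define a gate or share exons with a member.

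By the labels, same-numbered tracheal libraries came from 1 mouse, as did same-numbered lung libraries. Deviations from the group means correlated at 0.34, 0.12 and 0.22 for the tracheal pairs and at 0.28, 0.04 and 0.17 for the CD24hi and CD24lo pairs. For the CD24lo and alveolar pairs the correlations were 0.03, -0.06 and 0.07. BSC and alveolar libraries share only a number. No replicate pair was alike within counting noise (chi-square per degree of freedom at least 3.50). In 5 of the 6 groups 1 library stood apart: replicate 1 of BSCs, non-basal, CD24hi and CD24lo cells and replicate 2 of alveolar cells, whose pairs lay at 21.1 to 39.6 against 5.23 to 7.43 for the other pair of the group. One gene that shares exons with a member is not reported here.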

Additional observations from a re-analysis of the deposited data

How the results depend on the processing

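Over the 35 genes, direction and side of the threshold were kept in 420 of 525 gene and alternative pairs for BSCs against non-basal cells, 500 of 560 for BSCs against alveolar cells, 470 of 525 for CD24hi against CD24lo cells, 478 of 525 for CD24lo against alveolar cells and 691 of 735 for EpCAM-negative cells. In a further 25, 22, 16, 21 and 14 pairs, in that order, an uncalled value changed its sign and stayed uncalled. The count between BSCs and non-basal cells, 14, was 24 with library size alone and 8 to 12 when a library was left out. Directions reversed with library size alone for Polb (0.0312), Lig3 (0.32) and Mlh3 (0.26) in BSCs against non-basal cells, for Xpc (0.40) and Rad23b (0.0919) in BSCs against alveolar cells and for Polb (0.28) in CD24hi against CD24lo cells, and with the gene length correction for Polb (0.19) in EpCAM-negative cells. Library size alone leaves out the TMM factors, which shift all genes of a library alike. They were 1.17 to 1.20 in BSCs, 0.921 to 0.934 in non-basal, 1.10 to 1.12 in CD24hi, 0.871 to 0.973 in CD24lo and 0.881 to 0.899 in alveolar cells. What sets these factors apart, and the cause of the reversal with the gene length correction, was not tested. The gene length correction raised the EpCAM-negative count from 18 to 26, with 11 higher and 15 lower, where 69.9% of all genes were called.

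With only the libraries compared in the fit and no block, the NER count went from 2 to 5 in BSCs against non-basal cells and the BER count from 5 to 3 in CD24hi against CD24lo cells and from 7 to 4 in CD24lo against alveolar cells. With library size alone these were 10, 9 and 7. The replicate block was fitted to only the libraries compared, so it is set against the same fit without a block. The counts went from 18 without the block to 20 with it for BSCs against non-basal cells, from 26 to 27 for BSCs against alveolar cells (blocked by the number in the title), from 11 to 14 for CD24hi against CD24lo cells, from 12 to 13 for CD24lo against alveolar cells and from 17 to 18 for EpCAM-negative cells. The shares of all genes called went from 57.8% to 64%, 70.8% to 70.1%, 41% to 46.7%, 44.2% to 43% and 65.8% to 66.3% in the same order. The block took away no call of a member. It added Ercc6 (adjusted p = 0.00254) and Ddb2 (adjusted p = 0.037) in BSCs against non-basal cells, Ung (adjusted p = 0.0135) in BSCs against alveolar cells, Pms1, Ercc2 and Ercc3 in CD24hi against CD24lo cells, Apex1 in CD24lo against alveolar cells and Rad23b (adjusted p = 0.0291) in EpCAM-negative cells. Depth limits Neil3, Neil2 and Ung in lung, where a library held 1 to 62 of their reads. Other members were in a like range there, among them Pms1 (11 to 52 reads), Mgmt (12 to 57) and Mutyh (18 to 64). In the CD24hi libraries Mgmt had 32, 17 and 12 reads and Pms1 11, 29 and 24.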
